A study of Homo sapiens with 6 samples.

Results

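The genes described here are those whose symbol begins with NDUF, the prefix given to nuclear genes of respiratory complex I (NADH:ubiquinone oxidoreductase). They were taken by that prefix alone, and 44 of the 23228 genes in the count files carry it. By current nomenclature 37 of them encode subunits of the complex and 4, with symbols beginning NDUFAF, encode assembly factors. The other 3 are NDUFA4, which is now assigned to cytochrome c oxidase (complex IV), its relative NDUFA4L2, and NDUFC2-KCTD14, a readthrough transcript of neighbouring genes. At least 1 read fell in 43 of the 44 genes, and 42 had enough reads to be tested.

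Complex I is the largest enzyme of the mitochondrial respiratory chain and has the shape of an L. Its matrix arm oxidises NADH and passes the electrons along a chain of iron-sulfur clusters to ubiquinone, and its membrane arm pumps protons across the inner mitochondrial membrane. A conserved core does the catalysis, with the matrix part of the core encoded in the nucleus and the membrane part encoded in mitochondrial DNA. The remaining accessory subunits surround that core, and assembly factors help to build the complex but are not part of the finished enzyme.

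The libraries were made from polyadenylated RNA of MDA-MB-231, an established line of triple-negative breast cancer cells grown in DMEM with 10% fetal bovine serum. All cells had been infected with lentivirus carrying a short hairpin RNA (shRNA) and selected with puromycin for a week. In 3 libraries the hairpin had a scrambled sequence, and in the other 3 it was directed against SCUBE3, which encodes a secreted and cell-surface glycoprotein. The sources used here give neither the hairpin's sequence nor the number of hairpins, nor whether cells were kept as a pool. Replicates are numbered 1 to 3 in each group. Nothing in the labels says that they were separate cultures, so each p-value here measures no more than library-to-library spread, possibly of technical origin.

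The targeted RNA was checked first. SCUBE3 had 3.96, 4.26 and 3.54 CPM (a gene's reads per 1000000 reads in all genes of that library) in scramble replicates 1 to 3 and 4.04, 4.19 and 4.17 CPM in the libraries labelled knockdown (log2 fold change 0.03 ± 0.14, adjusted p = 0.871; p = 0.5 by a two-sided exact permutation test of the 3 against 3 CPM values, which cannot go below 0.1). It was therefore not lower in the libraries labelled knockdown, and the direction of every difference below is that of the labels alone. Protein was not analysed here. Reads in genes ran from 21348509 to 25520901 per library. Of all genes tested, 85.9% passed the threshold of an adjusted p under 0.05 in 1 direction or the other, so a gene that passed is the usual case in these libraries. Of the 6 genes listed as high in MDA-MB-231, 6 had reads in both groups, with sums of 9120 to 9540 CPM in scramble and 6751 to 6869 CPM in the other group. In the libraries labelled knockdown 2 of them were higher (CAV1 and CD44) and 4 lower (VIM, MSN, EGFR and AXL). A list of 7 luminal breast genes summed to 583 to 605 and 507 to 517 CPM, with KRT8 and KRT18 among them. Of its 6 tested genes 1 was higher in the libraries labelled knockdown and 5 were lower: GATA3 went from 5.81 ± 0.120 to 15.8 ± 0.348 CPM (SD, n = 3) and FOXA1 from 21.4 ± 1.58 to 0.0542 ± 0.0245 CPM. Immune, fibroblast and endothelial marker lists summed to at most 22.3 CPM in any library, with 5 of 5, 4 of 5 and 4 of 4 genes read and DCN at 0. Their sums ran from 0.487 to 1.07, 4.91 to 5.996 and 4.61 to 6.48 CPM in scramble, and from 7.13 to 7.80, 19.9 to 22.3 and 10.1 to 12.1 CPM in the other group. CD14 made up most of the immune sum in the libraries labelled knockdown (0.230 CPM in scramble and 6.31 CPM in that group), while PTPRC, CD3E and CD79A were at or below 0.230 CPM on average in either group. LYZ, the only other immune marker tested, rose as CD14 did, from a mean of 0.196 CPM in scramble to 0.821 CPM. The part of these markers in the results below was not tested.

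Genes for subunits of complex I moved in both directions within the same libraries. Of the 37 subunit genes, all of which were tested, 19 rose, 13 fell and 5 did not pass. Together 86.5% of subunit genes passed, beside 85.9% of all genes tested, so the number that passed does not set them apart. Among all genes 43.4% were higher and 42.5% lower. The median log2 fold change of the subunit genes was 0.21 (quartiles -0.18 and 0.79), beside 0.01 (quartiles -0.60 and 0.69) for all genes tested. A change of at least 1.5-fold was seen in 15 subunit genes upward and 4 downward, where 27.8% and 25.2% of all genes passed the same limits. At least 2-fold, 5 were higher and 0 lower, with 17.5% and 13.8% of all genes past these limits. The 3 scramble libraries and the 3 libraries labelled knockdown did not overlap in CPM for 20 subunit genes that were higher and 10 that were lower (45.6% and 40.2% of all genes). In bulk RNA, fewer cells of 1 kind and less RNA per cell cannot be told apart.

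**Figure D1:**
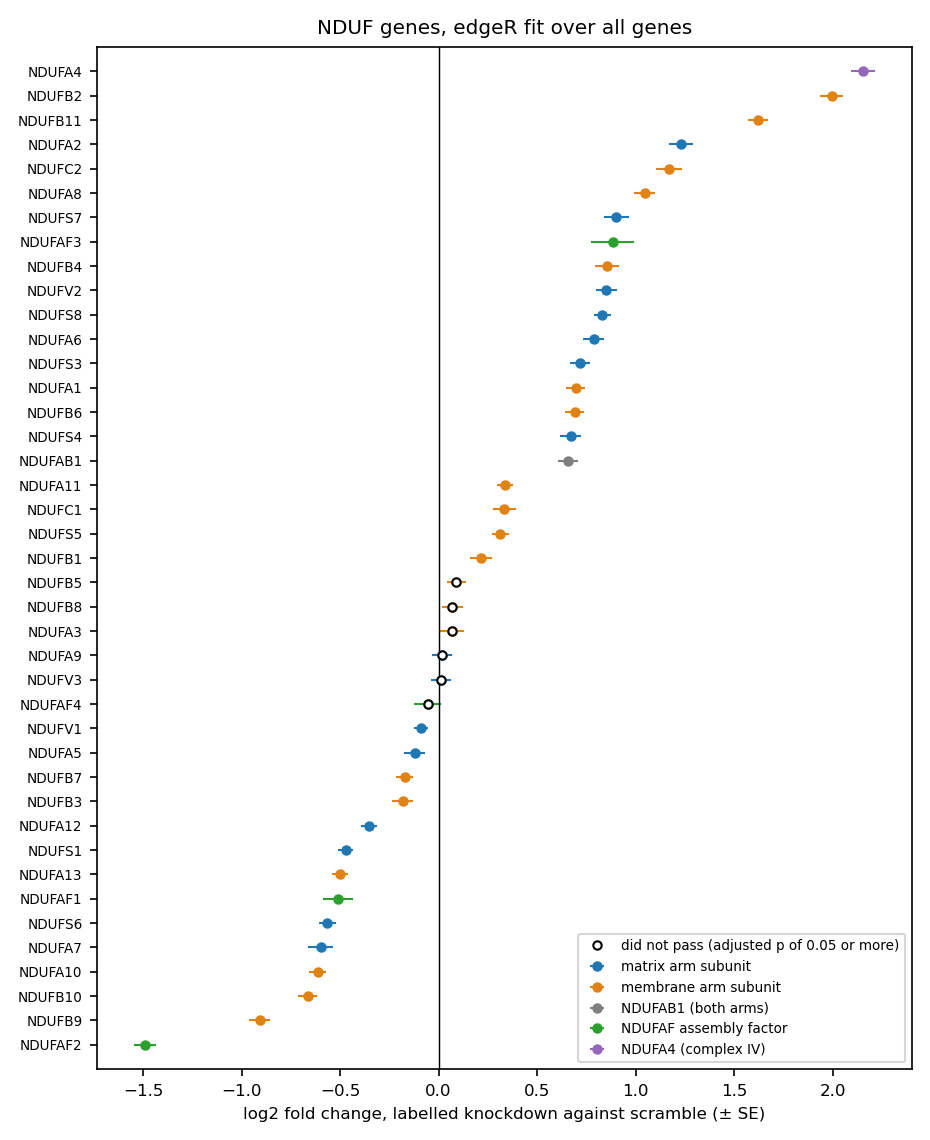
Log2 fold change (± SE) of 41 of the 42 tested NDUF genes, labelled knockdown against scramble, from the edgeR fit over all genes, with 1 row per gene, colour for its class and open points for genes that did not pass. NDUFA4 stands at the top at 2.16, NDUFB2 and NDUFB11 follow at 1.99 and 1.62, and NDUFAF2 is at the bottom at -1.49.

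Summed over the 37 genes, subunit RNA came to 2151, 2222 and 2218 CPM in the scramble libraries and to 2522, 2561 and 2477 CPM in the libraries labelled knockdown. Every library labelled knockdown lay above every scramble library. The means were 2197 ± 39.7 and 2520 ± 41.9 CPM (SD, n = 3), a ratio of 1.147 by library totals and of 1.11 after scaling with TMM (trimmed mean of M values). TMM, which sets the scale of all fold changes here, lowers them by 0.05 on the log2 scale relative to library totals. The 16 genes of the matrix arm summed to 1047 ± 3.74 and 1118 ± 15.7 CPM, a ratio of 1.07, and the 20 genes of the membrane arm to 1110 ± 35.5 and 1337 ± 27.4 CPM, a ratio of 1.204. NDUFAB1, the mitochondrial acyl carrier protein that sits in both arms, was counted apart. The membrane arm's share of subunit reads went from 50.5% to 53.1% and that of the matrix arm from 47.6% to 44.3%. The largest gains in CPM in the membrane arm were in NDUFB11 (means of 27.8 and 88.7 CPM) and NDUFB2 (17.5 and 72.4 CPM). For NDUFB11, 45.8% of exon bases overlap RBM10. By count, 7 matrix arm genes rose and 7 fell (median log2 fold change 0.01), while 11 membrane arm genes rose and 6 fell (median 0.26). That is 43.8% and 43.8% of matrix arm genes and 55% and 30% of membrane arm genes. The shares over all genes tested were 43.4% higher and 42.5% lower. The difference between the arms was not tested.

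**Figure D2:**
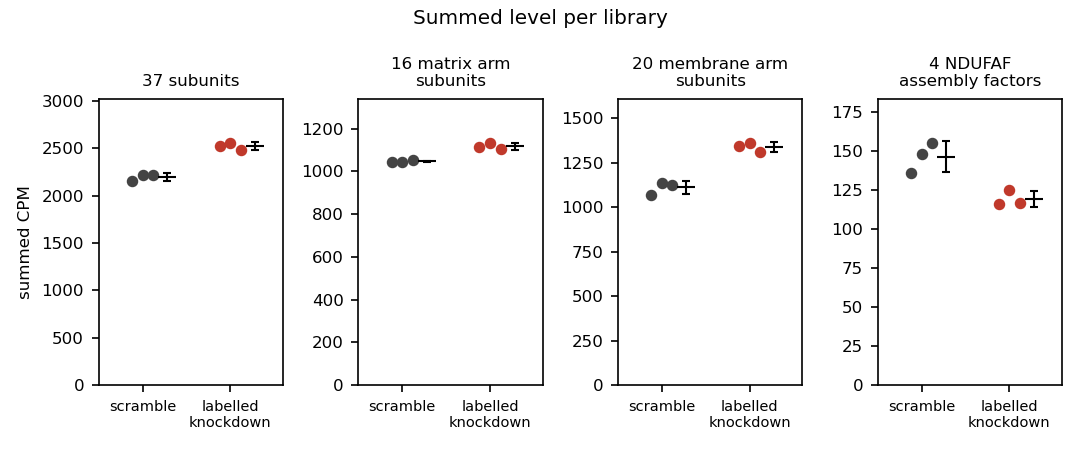
Summed CPM per library for the subunit genes, those of the matrix arm and of the membrane arm, and the NDUFAF genes, with 1 point per library and the mean ± SD (n = 3) beside it. For subunits the libraries labelled knockdown sit between 2477 and 2561 CPM, above the scramble libraries at 2151 to 2222 CPM, and for NDUFAF genes the order is the opposite. In the NDUFAF sum, the drop of NDUFAF2 was larger than that of the whole sum.

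The core subunits encoded in the nucleus form the flavin site, the chain of iron-sulfur clusters and the ubiquinone site, and genes of this core moved in both directions. NDUFS7, which holds the last iron-sulfur cluster, had 19.1, 22.7 and 20.5 CPM in scramble and 40.4, 41.7 and 38.5 CPM in the libraries labelled knockdown (log2 fold change 0.90 ± 0.06, adjusted p = 3.43e-16). NDUFV2, an iron-sulfur subunit next to the NADH site, had 28.97, 28.8 and 29.3 CPM in scramble replicates and 55.2, 55.1 and 52.6 CPM in the other group (log2 fold change 0.85 ± 0.05, adjusted p = 7.44e-18). NDUFS8, a ferredoxin-like subunit, went from 59.4, 62.6 and 67.3 CPM to 117, 118 and 114 CPM (log2 fold change 0.83 ± 0.04, adjusted p = 2.86e-20). For NDUFS3, a core subunit that holds no redox centre, scramble values were 42.9, 39.4 and 44.4 CPM and the others 71.2, 74.4 and 70.7 CPM (log2 fold change 0.72 ± 0.05, adjusted p = 2.61e-16). In each of these 4 genes all libraries labelled knockdown were above all scramble libraries, and the ratios ran from 1.65 to 1.87. With a correction for GC content and length, described further on, the log2 fold changes were 0.13 for NDUFS7, 0.15 for NDUFS8, 0.33 for NDUFS3 and 0.68 for NDUFV2.

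NDUFS1 and NDUFV1, core subunits at the part of the arm where electrons enter, were lower in the libraries labelled knockdown. NDUFS1, the largest subunit and carrier of several iron-sulfur clusters, had 167, 158 and 155 CPM in scramble and 119.8, 118 and 121 CPM in the libraries labelled knockdown (log2 fold change -0.47 ± 0.04, adjusted p = 8.49e-15). Its groups did not overlap, and the fall was 1.39-fold. NDUFV1, which binds NADH and the flavin, had 147, 147 and 144 CPM and 141, 146 and 141 CPM (log2 fold change -0.09 ± 0.04, adjusted p = 0.0223). Its groups overlapped, and it no longer passed without replicate 1 of the libraries labelled knockdown (adjusted p = 0.0902), without replicate 3 of that group (adjusted p = 0.110) or with scaling by library totals (adjusted p = 0.340). NDUFS1 and NDUFS7 thus changed in opposite directions in the same libraries, although that correction left them at -0.10 and 0.13.

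Of the 30 accessory subunits 15 rose, 10 fell and 5 did not pass (median log2 fold change 0.15), beside 43.4% higher and 42.5% lower of all genes. Most of the largest increases, like most of the largest decreases, were in the membrane arm, which holds 20 of these 30 genes. NDUFB2, a single-span subunit of the membrane arm, had 17.1, 17.7 and 17.8 CPM in scramble and 74.1, 75.9 and 67.3 CPM in the libraries labelled knockdown (log2 fold change 1.99 ± 0.06, adjusted p = 1.33e-28), a 3.99-fold rise. NDUFB11, another single-span subunit and an X-linked disease gene, had 27.3, 27.9 and 28.2 CPM and 89.6, 87.3 and 89.1 CPM (log2 fold change 1.62 ± 0.05, adjusted p = 3.37e-28). NDUFA2, a thioredoxin-fold subunit of the matrix arm, had 18.8, 20.3 and 18.03 CPM and 45.97, 47.5 and 45.3 CPM (log2 fold change 1.23 ± 0.06, adjusted p = 3.27e-21). The groups of these 3 genes lay far apart, with more than a doubling of the mean in each.

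NDUFC2, a membrane arm subunit, had 16.5, 15.7 and 15.3 CPM in the scramble libraries and 37.6, 37.6 and 35.7 CPM in the others (log2 fold change 1.17 ± 0.06, adjusted p = 1.47e-19). For NDUFA8, a twin CX9C protein of the intermembrane space side, the values were 33.8, 39.1 and 35.7 CPM and 73.2, 81.4 and 77.6 CPM (log2 fold change 1.05 ± 0.05, adjusted p = 1.29e-20). NDUFB4 had 21.04, 24.6 and 24.1 CPM and 44.2, 43.8 and 42.4 CPM (log2 fold change 0.85 ± 0.06, adjusted p = 4.36e-16). In all 3 the groups were separate, and the ratios were 2.25, 2.07 and 1.81. The other 9 accessory genes that rose had log2 fold changes from 0.21 (NDUFB1) to 0.79 (NDUFA6). NDUFA6 (0.79 ± 0.05), NDUFA1 (0.70 ± 0.05), NDUFB6 (0.69 ± 0.05), NDUFS4 (0.67 ± 0.05) and NDUFAB1 (0.66 ± 0.05) were past 1.5-fold. NDUFA11 (0.34), NDUFC1 (0.33), NDUFS5 (0.31) and NDUFB1 were below it, and with that correction NDUFA11 reversed while NDUFC1 and NDUFB1 no longer passed. NDUFS4, whose loss in mice and people gives a form of Leigh syndrome, had 35.3, 35.5 and 35.4 CPM with the scrambled hairpin and 61.5, 59.9 and 53.7 CPM in the other libraries, without overlap.

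**Figure D3:**
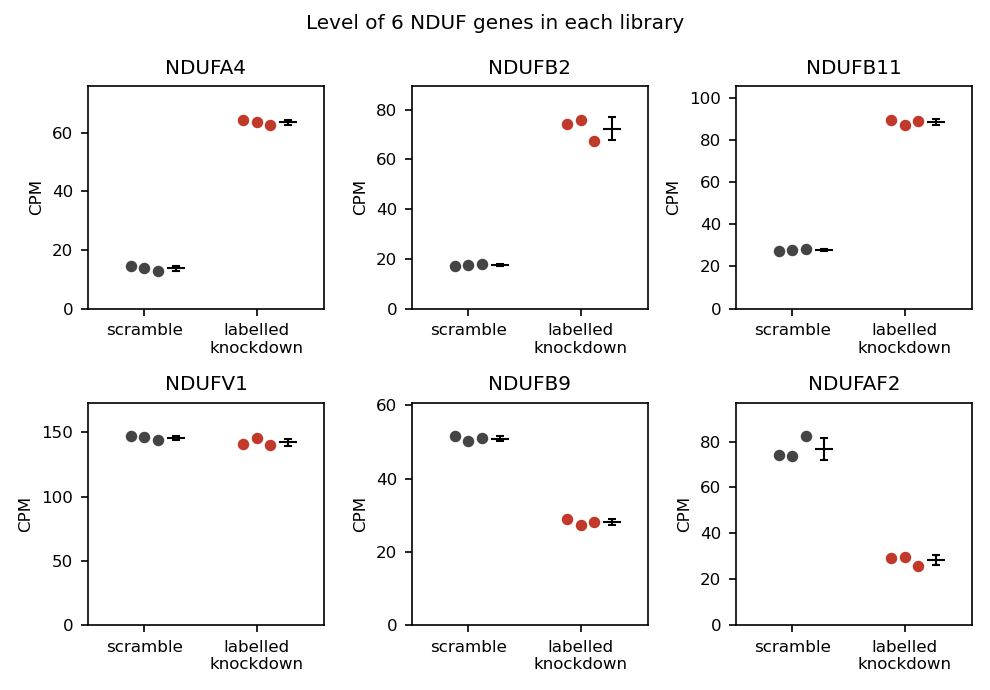
CPM of NDUFA4, NDUFB2, NDUFB11, NDUFV1, NDUFB9 and NDUFAF2 in each library, with 1 point per library and the mean ± SD (n = 3) beside it; each axis starts at 0. The groups are far apart in NDUFA4, NDUFB2 and NDUFB11, which are higher in the libraries labelled knockdown, and in NDUFB9 and NDUFAF2, which are lower, while NDUFV1 overlaps.

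The largest decrease among subunits was in NDUFB9, a membrane arm protein of the LYR family that docks the acyl carrier protein NDUFAB1. NDUFB9 had 51.5, 50.3 and 50.99 CPM in scramble and 29.03, 27.3 and 28.1 CPM in the libraries labelled knockdown (log2 fold change -0.91 ± 0.05, adjusted p = 1.28e-18), a 1.88-fold fall. NDUFA6, the LYR protein that docks NDUFAB1 in the matrix arm, and NDUFAB1 itself were among the genes that rose, so the pair of LYR subunits moved in opposite directions. NDUFB10, a membrane arm subunit, had 82.9, 78.5 and 89.4 CPM and 54.4, 54.5 and 55.1 CPM (log2 fold change -0.66 ± 0.05, adjusted p = 4.63e-16). NDUFA10, which resembles a nucleoside kinase, had 95.3, 98.98 and 96.6 CPM and 64.3, 67.8 and 64.8 CPM (log2 fold change -0.61 ± 0.04, adjusted p = 1.86e-16). All 3 scramble libraries were above all libraries labelled knockdown in each of these genes.

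NDUFA7, a matrix arm subunit, had 35.2, 40.1 and 36.7 CPM with the scrambled hairpin and 23.8, 26.8 and 25.8 CPM in the other group (log2 fold change -0.60 ± 0.06, adjusted p = 2.37e-11). The zinc-binding subunit NDUFS6 had 85.5, 89.9 and 89.8 CPM and 62.5, 62.7 and 60.5 CPM (log2 fold change -0.57 ± 0.04, adjusted p = 4.72e-15). NDUFA13, also known as GRIM-19, a membrane-spanning subunit also described as a regulator of cell death, had 112, 117 and 118 CPM and 86.3, 86.1 and 81.7 CPM (log2 fold change -0.50 ± 0.04, adjusted p = 1.82e-14). None of these 3 genes overlapped between the groups, and the falls were 1.51-fold, 1.48-fold and 1.41-fold. Smaller falls were measured for NDUFA12 (-0.36 ± 0.04), NDUFB3 (-0.18 ± 0.05), NDUFB7 (-0.17 ± 0.04) and NDUFA5 (-0.12 ± 0.05, adjusted p = 0.0362). NDUFA5 and NDUFB3 overlapped between groups. The call on NDUFA5 was lost without scramble replicate 1 or 2 (adjusted p = 0.0548 and 0.0573), without replicate 2 or 3 of the other group (adjusted p = 0.0784 and 0.183), by library totals (adjusted p = 0.228), without the filter on low counts (adjusted p = 0.0512) and by DESeq2 (adjusted p = 0.0961), and its sign turned with the GC and length correction (0.06).

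For 5 accessory subunits no difference passed the threshold without the GC and length correction. NDUFB5 had a log2 fold change of 0.09 (95% interval -0.01 to 0.19, adjusted p = 0.0791) with groups that did not overlap. It passed without scramble replicate 3 (adjusted p = 0.0494), without replicate 3 of the libraries labelled knockdown (adjusted p = 0.0420) and by library totals (adjusted p = 0.00725). The intervals were -0.04 to 0.18 for NDUFB8, -0.06 to 0.20 for NDUFA3, -0.09 to 0.12 for NDUFA9 and -0.09 to 0.12 for NDUFV3, and the groups of these 4 overlapped. Of these, NDUFB8 passed as higher by library totals (0.12, adjusted p = 0.0371) and as lower with the GC and length correction (-0.34, adjusted p = 1.33e-08). With that correction NDUFA3 passed as lower (-0.38, adjusted p = 4.44e-07) and NDUFA9 as higher (0.26, adjusted p = 2.25e-05), as did NDUFB5 (0.14, adjusted p = 0.00420). For NDUFA9 the correction used a transcript of 8363 bases, and no other transcript was tried. NDUFA9 is a short-chain dehydrogenase-like protein beside the quinone site, and NDUFV3 is a small subunit at the tip of the matrix arm.

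The NDUFAF assembly factors were counted apart from the subunits, and 1 of the 4 rose, 2 fell and 1 did not pass. Of all genes tested, 43.4% were higher and 42.5% lower, and the groups did not overlap in 85.9%. Summed, the 4 genes had 136, 148 and 155 CPM in scramble and 116, 125 and 117 CPM in the libraries labelled knockdown, a ratio of 0.815 of the means. NDUFAF2 alone went from a mean of 76.7 to 28.3 CPM, a larger drop than that of the sum (means of 146 and 119 CPM). The lower sum is therefore not shared by all 4 genes: NDUFAF1 also fell, NDUFAF3 rose and NDUFAF4 did not pass. NDUFAF2, a relative of the subunit NDUFA12 that holds its place until NDUFA12 is added late in assembly, had 74.03, 73.9 and 82.3 CPM with the scrambled hairpin and 29.4, 29.6 and 25.9 CPM in the others (log2 fold change -1.49 ± 0.06, adjusted p = 4.53e-25). This 2.81-fold fall was the largest decrease of any NDUF gene, and the groups were far apart; NDUFA12 fell less (-0.36). NDUFAF1, a member of the membrane arm's intermediate assembly complex, had 17.8, 18.4 and 20.1 CPM and 13.3, 13.3 and 14.4 CPM (log2 fold change -0.51 ± 0.08, adjusted p = 1.53e-07), again without overlap.

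NDUFAF3 and NDUFAF4 act as partners early in the assembly of the quinone-binding part. NDUFAF3 had 23.7, 33.4 and 31.2 CPM in scramble and 52.2, 59.7 and 56.1 CPM in the libraries labelled knockdown (log2 fold change 0.88 ± 0.11, adjusted p = 4.36e-05). Its groups did not overlap, although scramble replicate 1 was lower than the other scramble libraries. NDUFAF4 had 20.01, 22.3 and 21.7 CPM and 21.2, 22.4 and 20.1 CPM (log2 fold change -0.06 ± 0.07, adjusted p = 0.455), with overlapping groups and a 95% interval of -0.20 to 0.09. With the GC and length correction NDUFAF3 was at 0.26 and NDUFAF4 at 0.14, and the difference between the partners was not tested.

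Another 4 NDUFAF factors stand in the count files under earlier symbols and are not among the 44 genes. C2orf56, now NDUFAF7, a mitochondrial methyltransferase, had 44.03, 43.98 and 51.6 CPM with the scrambled hairpin and 17.5, 15.7 and 16.5 CPM in the other group (log2 fold change -1.54 ± 0.07, adjusted p = 4.76e-23). C8orf38, now NDUFAF6, had 12.1, 11.99 and 12.7 CPM and 20.8, 23.5 and 21.98 CPM (log2 fold change 0.80 ± 0.08, adjusted p = 2.89e-12). C20orf7, now NDUFAF5, which hydroxylates NDUFS7, had 15.9, 15.2 and 15.9 CPM and 12.8, 13.4 and 12.7 CPM (log2 fold change -0.33 ± 0.08, adjusted p = 0.000279). The groups of these 3 genes did not overlap, with C8orf38 higher and the other 2 lower in the libraries labelled knockdown. C17orf89, now NDUFAF8, the partner of NDUFAF5, had a log2 fold change of 0.02 ± 0.07 and did not pass (adjusted p = 0.838). Over NDUFAF1 to NDUFAF8, 2 rose, 4 fell and 2 did not pass, beside 43.4% higher and 42.5% lower of all genes. The falls of at least 2-fold were in NDUFAF2 and NDUFAF7, where 13.8% of all genes tested passed that limit.

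NDUFA4 changed more than any subunit. This small protein was long listed with complex I and is now known as a subunit of complex IV. It had 14.5, 13.8 and 12.9 CPM in the scramble libraries and 64.3, 63.5 and 62.6 CPM in the libraries labelled knockdown (log2 fold change 2.16 ± 0.06, adjusted p = 1.92e-29), a 4.45-fold rise. Each group was narrow and no value lay between them. NDUFA4L2, a relative that hypoxia is known to induce, had 1, 2 and 0 reads in scramble and 0, 1 and 1 reads in the other libraries, too few to test. It was at or below the limit that 3 reads over a group set in both groups (0.044 and 0.0404 CPM), so a difference was not detectable at this depth. NDUFC2-KCTD14 had 0 reads in all 6 libraries. All of its exon bases lie within those of other genes, so the 0 reads say nothing about the transcript.

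How reads of these genes are assigned bears on some of the values. In GENCODE v29 (GRCh38, used here for lengths and overlaps, while the counts were made on hg19), 17 of the 44 genes have a transcript that shares at least 1 stretch of 50 bases with another gene or pseudogene. The share was above 10% in NDUFAF2 (36.3%), NDUFV2 (26.2%) and NDUFB4 (12.4%), and reads from such stretches may be missing from the counts. Exon bases overlapped those of another listed gene in 13 genes, by 10% or more in 9. For NDUFB11 45.8% of exon bases overlap RBM10 on the opposite strand, and for NDUFA1 44.5% overlap RNF113A. NDUFB9 (26.0%, with TATDN1), NDUFA2 (24.1%, with IK and TMCO6), NDUFAF3 (22.6%, with DALRD3), NDUFC2 (19.0%, with NDUFC2-KCTD14 and THRSP), NDUFA3 (16.3%, with TFPT) and NDUFA7 (14.8%, with RPS28) are the others beside NDUFC2-KCTD14. The kit keeps the strand, but the sources used here do not give the counter's strand setting, and the values of these genes are uncertain to that extent. NDUFC2 and NDUFC2-KCTD14 lie on the same strand, so no strand setting separates their shared bases. Reads that fell in more than 1 gene were 0.534% to 0.543% of each scramble file and 0.588% to 0.597% of the others.

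Some NDUF genes start close to the annotated start of a gene on the other strand. Start sites within 1000 bases on opposite strands were found for 20 of the 44 genes in 22 pairs. Whether the starts face apart was not checked, and exons of NDUFB11 and NDUFA1 overlap those of RBM10 and RNF113A. In 17 pairs both genes were tested. Both genes passed in 10 of the 17 pairs, in the same direction in 6 and in opposite directions in 4. Of all genes tested, 85.9% passed, with 43.4% higher and 42.5% lower. The share over all such pairs of genes was not computed. NDUFAF2 starts 56 bases from ERCC8, a DNA repair gene, which had a log2 fold change of 0.00 ± 0.09 (adjusted p = 0.966) beside the fall of NDUFAF2. IK, a splicing factor gene 727 bases from the start of NDUFA2, fell by 1.49 ± 0.04 on the log2 scale while NDUFA2 rose. RBM10, 635 bases from the start of NDUFB11, rose by 0.13 ± 0.04, and RNF113A, 340 bases from that of NDUFA1, fell by 0.17 ± 0.06. MRPL36, 34 bases from NDUFS6, had 0.11 and did not pass (adjusted p = 0.0957).

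Promoter sequences were compared because nuclear genes of the respiratory chain are known targets of NRF-1, ETS factors of the GABP kind and YY1. RefSeq's table (GRCh38.p14) held the stretch from 250 bases before to 50 bases after the start of 37 of the 44 genes and 27305 promoters in all. The letters searched, on both strands, were GCGCATGCGC for NRF-1, CCGGAAG for ETS, AAGATGGCG for YY1 and CCAAT for NF-Y; no match of 1 motif overlapped a match of another. The NRF-1 letters stood in 2 of 37 NDUF promoters (5.41%) and 1.36% of all, ETS in 6 (16.2%) and 10.7%, YY1 in 5 (13.5%) and 1.85%, and NF-Y in 10 (27.0%) and 35.7%. The 5 genes with the YY1 letters are shown because their match lies in the same place in each: on the sense strand, 10 to 25 bases after the gene's start, with its ATG at the annotated start codon in 5 of 5. Each line gives the gene, then the sequence 5′ to 3′ on the gene's strand with the motif in capitals.

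NDUFA6: atgctttggcAAGATGGCGgggagcggcg
NDUFA7: tcgcggacggAAGATGGCGtccgccaccc
NDUFA9: attgtgggaaAAGATGGCGgctgccgcac
NDUFS4: tgcctgcagcAAGATGGCGgcggtgtcaa
NDUFS7: ggccgaggccAAGATGGCGgtgctgtcag

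These lie at chr22:42090729-42090757 (minus strand), chr19:8321343-8321371 (minus), chr12:4649114-4649142 (plus), chr5:53560650-53560678 (plus) and chr19:1383914-1383942 (plus). Outside the 9 shared letters the windows differ. Among the 5 genes NDUFS7, NDUFA6 and NDUFS4 rose, NDUFA7 fell and NDUFA9 did not pass, so these letters did not go with 1 direction. The RNA of YY1 itself was -0.52 ± 0.04 on the log2 scale (adjusted p = 5.78e-16).

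The NRF-1 letters are shown for the 2 genes that hold them, both of which rose, and a stretch upstream of NDUFAF2, the gene with the largest fall, is shown for its CCAAT letters on both strands.

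NDUFA8: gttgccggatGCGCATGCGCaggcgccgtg
NDUFB4: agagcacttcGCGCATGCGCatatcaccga
NDUFAF2: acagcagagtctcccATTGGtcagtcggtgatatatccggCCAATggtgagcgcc

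They lie at chr9:122159764-122159793 (minus strand, capitals from 4 bases before the start), chr3:120596167-120596196 (plus strand, capitals from 159 bases before the start) and chr5:60945074-60945128 (plus strand, whole stretch 131 to 77 bases before the start). NRF1, the gene of the factor, had a log2 fold change of 0.02 ± 0.06 (adjusted p = 0.803). The genes with ETS letters split into 2 that rose (NDUFA1 and NDUFS3), 3 that fell (NDUFA13, NDUFB7 and NDUFS1) and NDUFAF4, which did not pass. Of the 10 with CCAAT 6 rose, 3 fell and 1 did not pass, beside 43.4% higher and 42.5% lower of all genes.

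Fold changes of NDUF genes moved when GC content and transcript length were fitted. Subunit transcripts ran from 417 to 11819 bases (median 844) and from 36.4% to 66.5% GC (median 51.4%). Across the 12993 genes with a transcript, log2 fold change went with GC content (Pearson r 0.18, Spearman rho 0.25) and with log2 length (r -0.10, rho -0.13), as a description across genes that share these 6 libraries. Among the 37 subunits the values were 0.06 and 0.04 for GC content and -0.20 and -0.06 for length. Genes under 1000 bases had a median log2 fold change of 0.21 over all 961 of them, and 0.33 over the 23 subunits of that length.

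With a smooth correction for both in each library, 18 subunit genes were higher and 15 lower, and their median went from 0.21 to 0.08, while the median of all genes went from 0.01 to -0.07. Of the 42 tested NDUF genes 37 kept their sign, 31 had a lower value, and in 6 the value shifted by more than 1.5-fold. Across these 42 genes the shift followed GC content (r -0.96), as the correction is built to do. NDUFS7 (66.5% GC) went from 0.90 to 0.13, NDUFS8 from 0.83 to 0.15 and NDUFAF3 from 0.88 to 0.26. NDUFA13 went from -0.50 to -1.11 and NDUFB7 from -0.17 to -0.90. NDUFA11 reversed, from 0.34 to -0.30 (adjusted p = 1.84e-08). NDUFA4 (2.25), NDUFB2 (1.55), NDUFB11 (1.10), NDUFB9 (-1.29) and NDUFAF2 (-1.62) kept a change of more than 1.5-fold. The rises of NDUFB1 and NDUFC1 no longer passed (adjusted p = 0.833 and 0.150), nor did the fall of NDUFA5. NDUFS1, given a transcript of 11819 bases, went from -0.47 to -0.10, and NDUFV1 from -0.09 to -0.63.

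**Figure D4:**
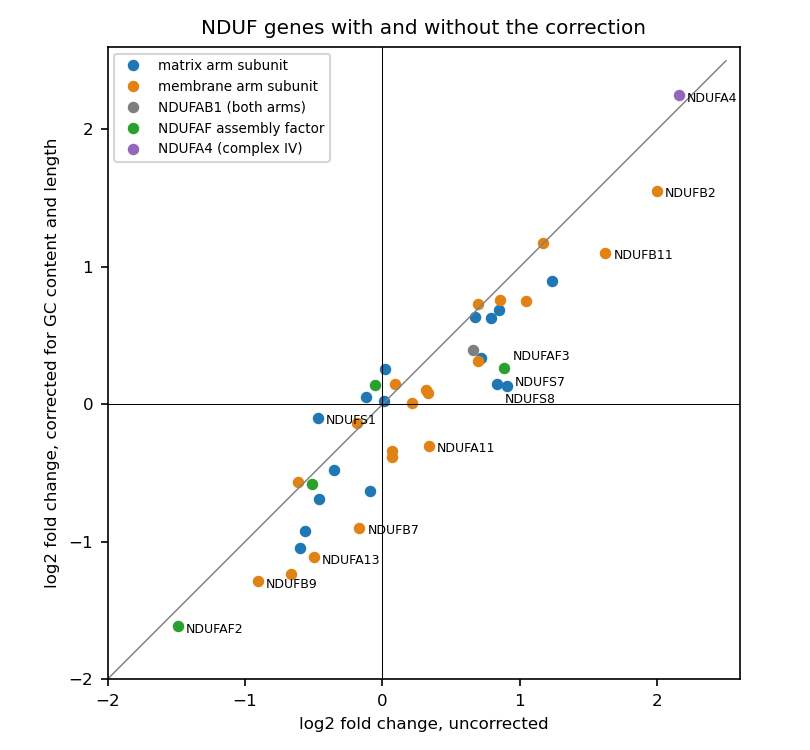
Log2 fold change of the 42 tested NDUF genes without correction (x axis) and with the correction for GC content and length (y axis), 1 point per gene, coloured by class, with the diagonal where both are equal. Most points lie below the diagonal (31 of 42), NDUFS7 and NDUFS8 among the farthest, while NDUFA4 and NDUFAF2 stay at the ends.

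Other genes of the pathway were counted from lists made for this comparison. Of 11 assembly factors of complex I listed outside the NDUF prefix, C17orf89 among them, 6 rose, 4 fell and 1 did not pass (median log2 fold change 0.25). The shares over all genes tested were 43.4% higher and 42.5% lower. ATP5SL, now DMAC2, fell by 0.57 ± 0.05 (adjusted p = 9.23e-15) and AIFM1, which takes part in the import of subunits, rose by 0.64 ± 0.05 (adjusted p = 1.21e-14). In the intermediate complex that holds NDUFAF1, TMEM126B rose by 0.46 ± 0.05 and ECSIT by 0.42 ± 0.05, while ACAD9 fell by 0.21 ± 0.05 and TIMMDC1 by 0.45 ± 0.05. TMEM186, another factor of this list, fell by 0.47 ± 0.09 (adjusted p = 4.79e-06). The genes named here for the intermediate complex thus changed in both directions, as the subunits did, and NDUFAF1 itself fell. None of the 7 symbols for mitochondrially encoded subunits of complex I matched a row, so the membrane part of the core is not analysed here.

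In complex II 3 of 8 genes rose and 3 fell (median -0.01), with C6orf57, now the assembly factor SDHAF4, at 2.34 ± 0.17. In complex III 4 of 13 rose and 8 fell (median -0.20), in complex IV 11 of 21 rose and 7 fell (median 0.09), and in complex V 12 of 20 rose and 3 fell (median 0.31). For comparison, 43.4% of all genes tested were higher and 42.5% lower. LYRM7, a complex III assembly factor, fell by 1.58 ± 0.05, SCO1, a copper chaperone of complex IV, fell by 1.15 ± 0.04, and ATP5A1, the alpha subunit of complex V, rose by 0.88 ± 0.03. Over all 104 tested genes of the lists beside NDUF, regulators and iron-sulfur genes included, 44 rose and 44 fell (median -0.01). With the GC and length correction 34 rose and 52 fell. The median of the complex I subunits lay between those of complexes IV and V, and no difference between lists was tested.

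**Figure D5:**
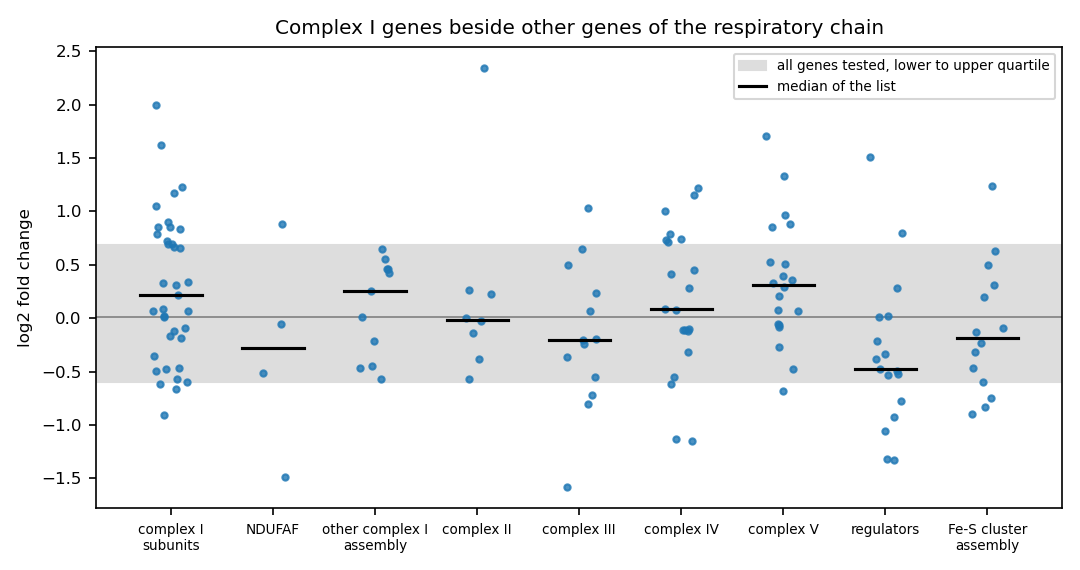
Log2 fold change of each tested gene (points) in the complex I subunits, NDUFAF genes and 7 other lists, with the median of each list as a bar and the grey band from the lower to the upper quartile of all genes tested (-0.60 to 0.69). Every list spans both directions, with medians from -0.48 for the regulators to 0.31 for complex V.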

How the data were processed

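Polyadenylated RNA was sequenced with a stranded kit as single reads of 50 bases, per the labels' protocols, and handled with bcl2fastq, TopHat2 2.0.8b and HTSeq on hg19, per the submitters' processing notes; the sources used here do not give the counter's settings. The authors deposited raw read counts per gene symbol, without normalization. Samples were grouped by title. After filterByExpr, 13606 genes remained; TMM set the scale, and the test was edgeR's robust quasi-likelihood F test with the group as its term (R 4.3.3, edgeR 4.0.16), with Benjamini-Hochberg adjustment over all of them and a threshold of 0.05. Values after ± are SE for log2 fold changes and SD for CPM. CPM use the total of reads in genes; HTSeq's summary lines were left out: reads not unique (34.0% to 34.2% of scramble files, 29.3% to 29.6% of the others), in no feature (14.4% to 15.0% and 11.0% to 11.1%) and in more than 1 gene (at most 0.597%). Reads carry no molecular identifiers, so limits from counts cover counting error only.

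NDUF genes were found by prefix. Values in each library are given for core subunits, the NDUFAF genes, NDUFA4, NDUFA4L2 and the 6 largest changes in each direction among other subunits that passed, and for other lists up to 3 genes by adjusted p. NDUFS4, the earlier-symbol NDUFAF genes, the NDUFAF1 partners (ECSIT, ACAD9, TIMMDC1), TMEM186, YY1, NRF1, FOXA1, GATA3, CD14, LYZ, and neighbours on the opposite strand were added after values were seen. The members and lists were chosen with earlier results of these data known. The fit was tested on simulated data. A result that is counted in the totals is not reported by name here. No libraries were merged as copies: within a group, chi-square over its degrees of freedom was 1.69 to 3.56. The GC and length correction was a loess curve per library over 12993 genes. Alternatives were other scalings and filters, DESeq2 1.42.0, limma-voom (limma 3.58.1), leaving out each library, a replicate block, a test against 1.5-fold and a threshold of 0.01.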

Additional observations from a re-analysis of the deposited data

Results flagged for a closer look

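Reads that fell in more than 1 gene, which no comparison here uses, made up 0.593% of all reads on average in the libraries labelled knockdown and 0.537% in the scramble libraries. Every library of the first group was above every library of the second.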

How the results depend on the processing

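Of 714 values for the 42 tested NDUF genes under 17 alternatives, 667 kept their direction and side of the threshold, 31 lost the call, 6 gained it and 10 reversed; 35 genes reversed under none of them. Tested against a 1.5-fold change, 3307 genes were higher and 2944 lower, 14 subunit genes were higher and 2 lower, 1 NDUFAF gene was higher and 1 lower, and 17 and 14 genes of the other lists were higher and lower. The subunits' median log2 fold change was 0.27 by library totals, 0.0813 with the GC and length correction, and 0.16 to 0.27 with 1 library left out. The ratio of summed subunit CPM was 1.11 with TMM, DESeq2's size factors or upper-quartile scaling. With the GC and length correction NDUFA11 (-0.30), NDUFA3 (-0.38), NDUFB8 (-0.34), NDUFA5 (0.0558) and NDUFAF4 (0.14) reversed. With 1 library left out the estimates ran from -0.0270 to 0.0480 for NDUFA9, from -0.00683 to 0.114 for NDUFB8, from -0.0316 to 0.0389 for NDUFV3 and from -0.0503 (without scramble replicate 3) to 0.0796 for SCUBE3. Deviations of same-numbered libraries correlated at 0.0171, 0.00640 and 0.000666, and those of other-numbered libraries at -0.0281 to 0.0218. No pairing by number was seen, but these values cannot exclude a shared culture or day. The fit with a replicate block gave 19 subunit genes higher and 13 lower, 5919 and 5787 of all genes, and changed no call on an NDUF gene. With 3 libraries a group an exact permutation test cannot go below 0.1, so single-gene calls rest on the spread shared across genes. Depth limits NDUFA4L2, and overlap with other genes limits NDUFC2-KCTD14.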

Other observations

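Genes that regulate the respiratory chain fell more often than they rose. Of 17 tested, 3 rose, 12 fell and 2 did not pass (median log2 fold change -0.48), beside 43.4% higher and 42.5% lower of all genes. TFAM, which packages mitochondrial DNA and starts its transcription, had 208, 206 and 209.7 CPM in scramble and 104, 101 and 105 CPM in the libraries labelled knockdown (log2 fold change -1.06 ± 0.04, adjusted p = 7.36e-27). C10orf2, now TWNK, the mitochondrial DNA helicase, went from 97.2, 101 and 99.2 CPM to 41.9, 43.7 and 38.3 CPM (log2 fold change -1.32 ± 0.05, adjusted p = 1.98e-25). MYC had 62.8, 74.2 and 71.02 CPM and 199.7, 210.4 and 201 CPM (log2 fold change 1.51 ± 0.04, adjusted p = 1.04e-26). The groups of these 3 genes did not overlap, with TFAM and C10orf2 lower and MYC higher in the libraries labelled knockdown.

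Of 14 genes that make iron-sulfur clusters, the redox centres of the complex I core, 5 rose, 7 fell and 2 did not pass (median -0.18). The shares over all genes tested were 43.4% higher and 42.5% lower. LYRM4, part of the cysteine desulfurase complex, rose from 17.1, 17.3 and 17.5 CPM to 43.6, 42.8 and 40.3 CPM (log2 fold change 1.24 ± 0.06, adjusted p = 5.45e-21). GLRX5, a glutaredoxin that carries clusters, fell from 90.2, 92.98 and 91.7 CPM to 57.2, 57.5 and 55.4 CPM (log2 fold change -0.74 ± 0.04, adjusted p = 9.03e-19). The desulfurase itself, NFS1, fell by 0.59 ± 0.05 while its partner LYRM4 rose. NFS1 was chosen after its value was seen.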
